A study of Mus musculus with 5 samples.

Results

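The genes described are 39 mouse genes of the extracellular matrix other than collagens: glycoproteins, proteoglycans and the enzymes that crosslink or process matrix. They were taken from a fixed list of symbols, chosen with earlier results of these data known. The symbols were joined by Ensembl identifier to the 46983 genes of each count file. All 39 were found, and 38 had enough counts to be tested. The exception was Fmod, which encodes the small proteoglycan fibromodulin and had 6, 15 and 4 counts in the controls and 5 and 2 in the Treg-ablated libraries. RNA-seq was done on cells sorted from EO771 tumours, a mouse mammary carcinoma grown in the mammary gland of mice whose strain the labels give as C57/BL6. Regulatory T (Treg) cells, which restrain other immune cells, were ablated by diphtheria toxin, given in 2 doses of 50 µg per kg, and cells were collected 4 days later (2 libraries). Control tumours received no treatment (3 libraries), so effects of the toxin itself and of losing Treg cells cannot be told apart. The labels used here name neither an allele that makes Treg cells sensitive to the toxin nor the age of the mice. Nor do they tie each library to an animal of its own, so p-values cover only the variation among these 5 libraries, and that may be technical.

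The extracellular matrix is the network of secreted proteins around cells. Fibroblasts make most of it in many tissues, and tumour cells and macrophages add to it. Fibronectin and the matricellular proteins carry sites for integrins, fibrillin microfibrils carry elastin, and laminins, nidogens and perlecan form basement membranes together with collagen IV. Small leucine-rich proteoglycans bind collagen fibrils, and lysyl oxidases crosslink collagen and elastin. In tumours this matrix is known for stiffening the tissue and for guiding or hindering immune cells.

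Library totals ran from 13122668 to 20156835 counts. The labelled cell type is tumour-associated macrophages (CD45+ CD11b+ Ly6G- F4/80+), but genes of that gate were low. Levels are given in CPM, counts per 1e+06 counts of the scaled library, and per kilobase (kb) of exon where genes are compared. Adgre1, which encodes F4/80, had 1.77 to 3.04 CPM per kb, Itgam (CD11b) 2.43 to 3.78 and Ptprc (CD45) 1.21 to 1.80 CPM per kb, while Ly6g was at most 0.201 CPM per kb. By the same measure Fn1, the highest matrix gene, had 946 ± 89.7 CPM per kb in the controls. The summed level of 16 macrophage markers was 583 to 608 CPM in the controls and 322 to 386 CPM after ablation, with Trem2 the lowest of them. That of 16 fibroblast markers outside the list was 9465 to 11650 and 10330 to 11010 CPM, and without Col3a1, which made up most of it, 1998 to 2098 and 1630 to 1634 CPM. The latter sum still holds the collagen genes Col1a1 and Col1a2. Their means were 724 and 362 CPM in the controls and 468 and 248 CPM after ablation, so most of the fall of that sum lies in these collagens. Of these fibroblast markers Tcf21 was at 0 in every library. The data thus go against the label of sorted macrophages, and no matrix gene is assigned to a cell type. In such bulk RNA, fewer cells of a type and less RNA per cell cannot be told apart.

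The matrix genes covered a wide range of levels. Together they took between 1.89% and 2.58% of all counts of a library, and Fn1 alone between 0.789% and 1.17%. Levels of different genes are compared per kilobase of exon, as mean ± SD over the 3 control libraries. Fn1, which encodes fibronectin, was highest at 946 ± 89.7 CPM per kb. It was followed by Dcn (the small proteoglycan decorin) at 359 ± 13.7 and Sparc (a collagen-binding glycoprotein) at 238 ± 12.9 CPM per kb. Lum (lumican, 204 ± 5.72 CPM per kb) and Hspg2 (perlecan, 204 ± 21.6 CPM per kb) came next and did not differ beyond their spread. Nid1 (nidogen-1, 185 ± 15.97 CPM per kb) followed, below Lum and Hspg2 in each control library. In all, 10 members had at least 100 CPM per kb in the control mean, the others of them being Thbs2, Fbn1, Pcolce and Lamb1. At the other end, Lama2, Nid2 and Fmod were below 1 CPM per kb.

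**Figure D1:**
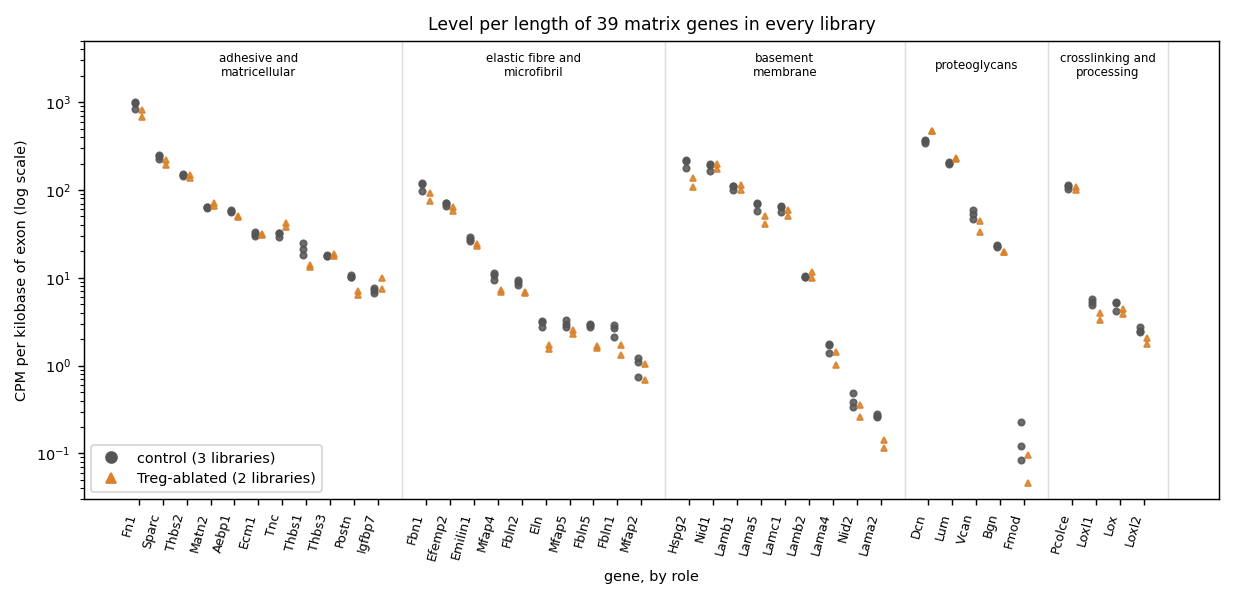
CPM per kilobase of exon (log scale) of the 39 matrix genes, grouped by role, with a circle for each of the 3 control libraries and a triangle for each of the 2 Treg-ablated libraries. Fn1 stands highest at 946 CPM per kb in the control mean, and the lowest genes lie below 1 CPM per kb.

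Laminins are heterotrimers of an alpha, a beta and a gamma chain, and the chains differed widely in level. Of the alpha chains, Lama5 had 65.2 ± 7.08 CPM per kb in the controls, Lama4 1.62 ± 0.198 and Lama2 0.271 ± 0.00925. Of the beta chains, Lamb1 had 107 ± 7.21 CPM per kb and Lamb2 10.4 ± 0.0817. The gamma chain gene Lamc1 had 62.3 ± 5.36 CPM per kb. The highest alpha, beta and gamma chains were thus Lama5, Lamb1 and Lamc1. The means of Lama5 and Lamc1 did not differ beyond their SD, although Lama5 was slightly above Lamc1 in each control library. Of the nidogens, which link laminin to collagen IV, Nid1 was far above Nid2 (0.407 ± 0.0772 CPM per kb). Among the lysyl oxidases, Lox and Loxl1 did not differ beyond their spread and Loxl2 was lower, at 4.86 ± 0.597, 5.29 ± 0.38 and 2.56 ± 0.196 CPM per kb, and Pcolce, whose product enhances procollagen processing, was much higher at 109 ± 4.74 CPM per kb.

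The comparison asked how transcripts differed after Treg ablation. Of the 38 matrix genes tested with the quasi-likelihood test of edgeR, 18 were lower and 2 higher at an adjusted p under 0.05, and 18 did not pass. Over all 14580 genes tested, 25.8% passed, 12.3% as lower and 13.5% as higher. The share of the matrix genes that was lower, 47.4%, lay above that background, and the share that was higher, 5.3%, lay below it. The list was chosen with earlier results of these data known, so these shares describe it and do not test for an excess. Among the 7982 genes with a control mean of at least 19.8 CPM, the lower quartile of the matrix genes, 17.2% were lower. The median log2 fold change was −0.23 for the matrix genes and −0.01 for all genes tested. The changes were moderate: 7 genes fell by more than 1.5-fold, and the log2 fold changes ran from −1.06 (Lama2) to 0.40 (Dcn). When edgeR tested against a fold of 1.5 instead of no change, 0 of the 38 passed, and Hspg2, Eln, Lama2 and Fbln5 (4 genes) had an unadjusted p under 0.05; no other tool was run in this form.

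**Figure D2:**
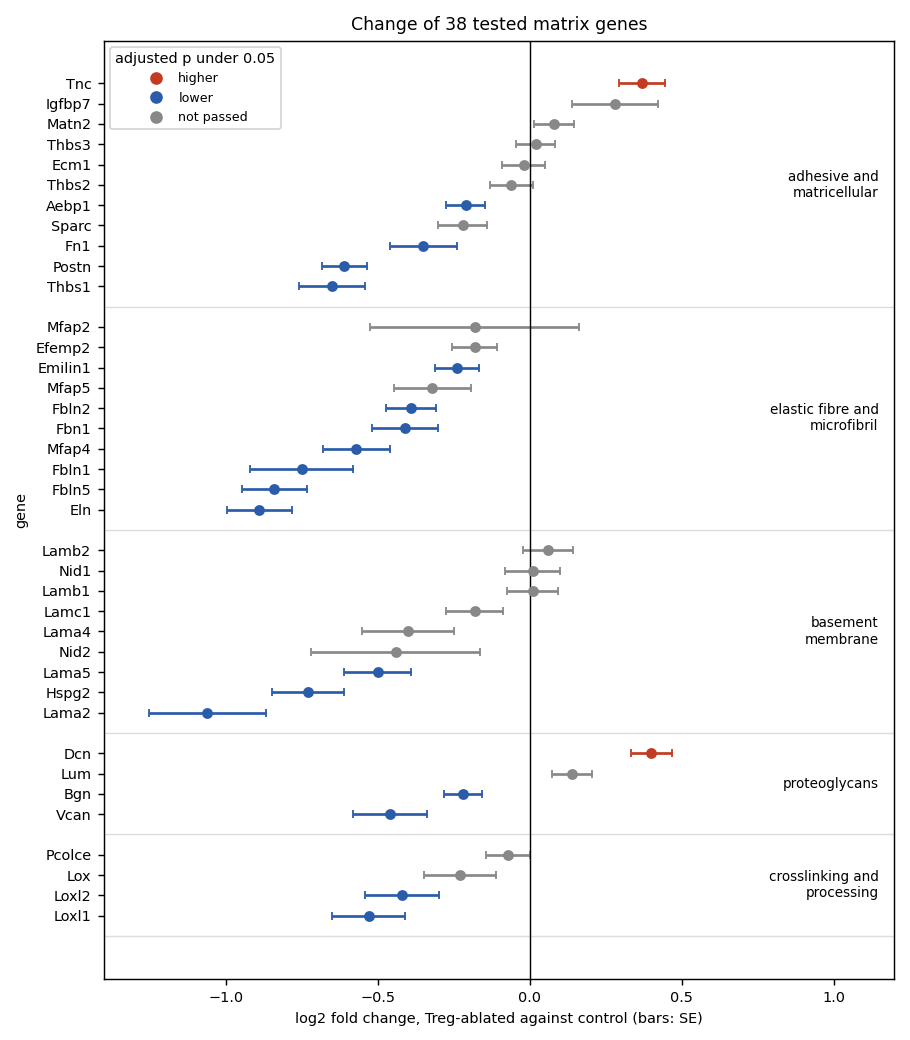
Log2 fold change (Treg-ablated against control) of the 38 tested matrix genes by role, with bars for the SE and colour for the call at an adjusted p under 0.05. Of these genes 18 lie left of 0 as lower, Tnc and Dcn lie right of it as higher, and 18 in grey did not pass.

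The groups did not overlap for 25 of the 38 genes (65.8%), compared with 52.5% of all genes tested. These 25 include all 20 that passed. The other 5 are Sparc, Matn2, Efemp2, Mfap5 and Lum, for which no call was made. Of the 18 genes that did not pass, 11 had a negative and 7 a positive log2 fold change. Beside these changes, 13 of 16 macrophage markers and 6 of 15 tested fibroblast markers outside the list were lower, whereas 8 of 8 T cell markers and 4 of 5 B cell markers were higher. Over all genes tested, 12.3% were lower and 13.5% higher. The 6 fibroblast markers include Col1a1 and Col1a2, which are counted again among the collagen genes. Of the fibroblast markers, Twist1 was higher. Of the vascular lists, 2 of 8 pericyte and smooth muscle markers tested were lower, and of 7 endothelial markers 0 passed in edgeR, limma-voom or DESeq2 (1 at an unadjusted p under 0.05 in edgeR). The summed level of 8 T cell markers was 12.03 to 15.2 CPM in the controls and 42.5 to 45.03 CPM after ablation, that of 5 B cell markers 10.9 to 14.6 and 37.5 to 39.5 CPM, and that of 10 pericyte and smooth muscle markers 45.97 to 50.7 and 39.5 to 41.7 CPM. Of the epithelial, neutrophil and platelet markers tested (4, 2 and 4), 0 passed in edgeR, limma-voom or DESeq2, with 1 platelet marker at an unadjusted p under 0.05 in edgeR. The 10 epithelial markers summed to 292 to 317 CPM in the controls and 259 to 301 CPM after ablation. Of these 10, 6 (Epcam, Krt5, Krt14, Esrp1, Cldn3 and Cldn4) were under 1 CPM in every library, with Esrp1 at 0. The part of these cell types in the matrix changes was not tested.

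**Figure D3:**
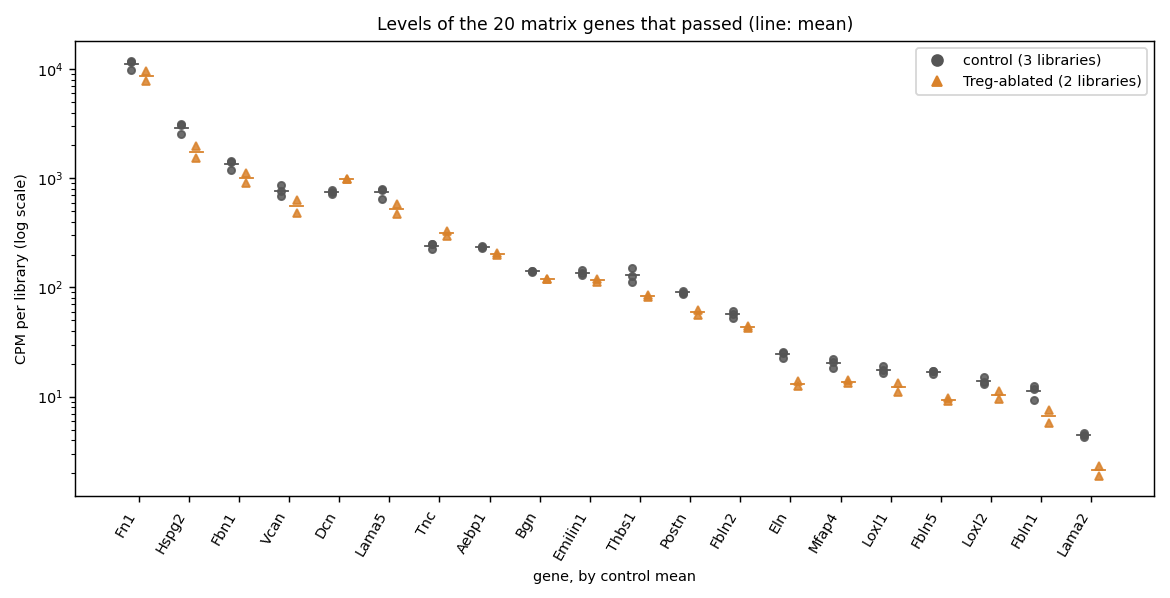
CPM (log scale) of the 20 matrix genes that passed, with a circle per control library, a triangle per Treg-ablated library and a line at each group mean. The triangles lie below every circle for 18 genes and above every circle for Dcn and Tnc.

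How firmly these calls stood differed between genes. In each of 16 alternatives other than the test against a fold of 1.5, Postn, Thbs1, Eln, Fbln5, Mfap4, Lama2 and Hspg2 were called lower and Tnc and Dcn higher. The other 11 lower genes lost the call in at least 1 alternative and kept their sign in all. Without control replicate 2, the library with the most counts, those 7 were the only matrix genes called lower. Over all genes the number lower fell from 1787 to 554 in that setting. With a correction for GC content, 10 of the 18 remained lower and Lama4 and Lox joined them, with 1332 of all genes lower. With a correction for gene length all 18 remained.

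Of these 9 genes, Tnc, Postn, Fbln5, Hspg2 and Lama2 have an entry in the RefSeq promoter table. Promoters are shown for Tnc, which rose, and for Postn, Fbln5 and Hspg2, so that their start regions can be set side by side. The latter 3 had the smallest adjusted p among the genes with an entry that fell. Each window runs from 250 bases before to 50 bases after the start site nearest the 5′ end of the gene in the files (GRCm38.p6), 5′ to 3′ on the gene's strand. Capitals mark 4 motifs searched on both strands: the TATA box TATAAA, the GC box GGGCGG, the AP-1 site TGANTCA and the interferon-gamma-activated GAS element TTCNNNGAA. The windows lie at chr4:64046966-64047265 on the minus strand (Tnc), chr3:54360857-54361156 on the plus strand (Postn), chr12:101819070-101819369 on the minus strand (Fbln5) and chr4:137468553-137468852 on the plus strand (Hspg2).
Tnc: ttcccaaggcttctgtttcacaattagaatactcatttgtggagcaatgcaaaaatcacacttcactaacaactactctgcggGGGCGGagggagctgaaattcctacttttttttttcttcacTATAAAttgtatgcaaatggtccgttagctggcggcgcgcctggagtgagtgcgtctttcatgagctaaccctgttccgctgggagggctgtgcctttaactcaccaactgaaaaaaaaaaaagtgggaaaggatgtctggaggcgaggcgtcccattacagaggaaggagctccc
Postn: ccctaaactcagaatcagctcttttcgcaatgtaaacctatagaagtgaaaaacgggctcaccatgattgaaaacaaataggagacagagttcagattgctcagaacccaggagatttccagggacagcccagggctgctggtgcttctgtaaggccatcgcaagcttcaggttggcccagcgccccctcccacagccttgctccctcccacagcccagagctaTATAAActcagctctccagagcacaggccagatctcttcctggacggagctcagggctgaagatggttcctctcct
Fbln5: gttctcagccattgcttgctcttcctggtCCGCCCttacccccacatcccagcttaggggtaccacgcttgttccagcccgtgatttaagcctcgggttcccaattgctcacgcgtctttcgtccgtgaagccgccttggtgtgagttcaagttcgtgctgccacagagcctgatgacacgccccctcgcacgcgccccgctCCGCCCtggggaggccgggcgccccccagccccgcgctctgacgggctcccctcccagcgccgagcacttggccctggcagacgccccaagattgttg
Hspg2: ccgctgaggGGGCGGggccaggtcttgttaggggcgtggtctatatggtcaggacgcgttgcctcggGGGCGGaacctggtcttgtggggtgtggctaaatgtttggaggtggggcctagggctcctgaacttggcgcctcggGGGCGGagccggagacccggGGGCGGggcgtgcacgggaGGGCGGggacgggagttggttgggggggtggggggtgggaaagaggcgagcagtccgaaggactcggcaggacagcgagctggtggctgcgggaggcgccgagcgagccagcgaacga
The Postn window holds a TATA box whose first base lies 26 bases before the start site (position -26), and the Tnc window a TATA box at -126 and a GC box at -167. The Fbln5 window holds 2 GC boxes and no TATA box, and the Hspg2 window 5 GC boxes and no TATA box. Of the 39 genes, 25 have an entry, with 32 windows. A GC box stood in 68.8% of these windows against 35.7% of all 32851 promoters in the table, and a TATA box in 15.6% against 13.6%. An AP-1 site and a GAS element each stood in 1 of the 32 windows (3.1%), those of Ecm1 and Lamb2, against 7.8% and 8.3% of all promoters. A match describes letters in the window and not a bound site.

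Among 11 adhesive and matricellular glycoproteins, Thbs1, Postn, Fn1 and Aebp1 were lower, Tnc was higher and 6 did not pass (median log2 fold change −0.06). The lower genes made up 36.4% of them, against 12.3% of all genes tested. Thbs1 (ENSMUSG00000040152, chromosome 2, 118111876 to 118127133, GRCm38) encodes thrombospondin-1, which binds CD47 and CD36 and can activate latent TGF-β. It had 149.5, 128 and 111 CPM in the controls and 80.95 and 84.9 CPM in the Treg-ablated libraries. Both Treg-ablated values lay below all controls, which themselves spread from 111 to 149.5 CPM, and the level fell 1.56-fold (log2 fold change −0.65, SE 0.109, adjusted p = 0.00267). Postn (ENSMUSG00000027750, chromosome 3, 54361109 to 54391037) encodes periostin, an integrin ligand made by activated fibroblasts. It had 93.05, 89.5 and 87.7 CPM in the controls and 55.98 and 62 CPM in the Treg-ablated libraries. Its controls lay within a few CPM of each other, well above both Treg-ablated libraries, and it fell 1.53-fold (log2 fold change −0.61, SE 0.074, adjusted p = 0.000604).

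Fn1 (ENSMUSG00000026193, chromosome 1, 71585520 to 71653200) encodes fibronectin, the main ligand of the integrin alpha5 beta1. It had 11750, 11560 and 9848 CPM in the controls and 7850 and 9532 CPM in the Treg-ablated libraries. The groups did not overlap, but the highest Treg-ablated library and the lowest control lay close together, and the fall was small (log2 fold change −0.35, SE 0.11, adjusted p = 0.0409). Fn1 did not pass with scaling by library size alone or with a filter of at least 10 counts in every library (adjusted p = 0.0542 and 0.0519). Aebp1, whose secreted product binds collagen, had 229, 234 and 241 CPM in the controls and 200.0 and 206 CPM in the Treg-ablated libraries. Its groups did not overlap, and the small fall passed narrowly (log2 fold change −0.21, SE 0.064, adjusted p = 0.035). With scaling by library size alone and with thinning to the smallest library it did not pass (adjusted p = 0.0506 and 0.0554). When Treg-ablated replicate 1, control replicate 1 and control replicate 2 were left out in turn, the adjusted p of Fn1 was 0.223, 0.121 and 0.169, its log2 fold change was −0.21 without the first of these, and with the GC correction its adjusted p was 0.151. The call on Aebp1 ended without any 1 of the 5 libraries (adjusted p between 0.0534 and 0.143) and with the GC correction (log2 fold change −0.07, adjusted p = 0.473).

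Tnc (ENSMUSG00000028364, chromosome 4, 63959785 to 64047015) encodes tenascin-C, a matricellular glycoprotein that appears in wounds and tumour stroma. It was one of the genes that rose, with 249.8, 251 and 225 CPM in the controls and 295 and 331 CPM in the Treg-ablated libraries. Every Treg-ablated value lay above every control, and the rise was 1.29-fold (log2 fold change 0.37, SE 0.077, adjusted p = 0.00736). Among the members that did not pass, Sparc had 752, 814 and 836 CPM in the controls and 730.2 and 641 CPM in the Treg-ablated libraries. Its groups did not overlap (log2 fold change −0.22, SE 0.081, adjusted p = 0.0661), and it was called lower once Treg-ablated replicate 1 was left out (−0.32, adjusted p = 0.033), with the gene length correction, with the most lenient filter and in DESeq2 (adjusted p = 0.0498). The log2 fold change was −0.06 (SE 0.071) for Thbs2 and 0.02 (SE 0.065) for Thbs3, other thrombospondin genes, 0.08 (SE 0.065) for Matn2 (the adaptor protein matrilin-2) and −0.02 (SE 0.07) for Ecm1 (a secreted glycoprotein). Igfbp7, which binds insulin-like growth factors, had a log2 fold change of 0.28 (SE 0.141) and was called higher once Treg-ablated replicate 2 was left out (0.47, adjusted p = 0.0383).

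All 10 genes of elastic fibres and microfibrils had a negative log2 fold change, save Mfap2 when Treg-ablated replicate 2 was left out, and 7 of them were lower (median −0.40). Over all genes tested, 50.7% had a negative log2 fold change and 12.3% were lower. Elastic fibres consist of an elastin core on a scaffold of fibrillin microfibrils. Eln (ENSMUSG00000029675, chromosome 5, 134702593 to 134747323), the gene of tropoelastin, had 25.1, 22.5 and 25.9 CPM in the controls and 12.6 and 13.8 CPM in the Treg-ablated libraries. Both Treg-ablated values were far under the lowest control, a 1.86-fold fall (log2 fold change −0.89, SE 0.107, adjusted p = 0.000567). Fbln5 (ENSMUSG00000021186, chromosome 12, 101746565 to 101819055) encodes fibulin-5, which is needed for elastic fibre assembly in mice. It had 16.1, 17.2 and 17.1 CPM in the controls and 9.14 and 9.65 CPM in the Treg-ablated libraries. The spread within each group was small beside the gap between them, and Fbln5 fell 1.79-fold (log2 fold change −0.84, SE 0.107, adjusted p = 0.000773). Mfap4 (ENSMUSG00000042436, chromosome 11, 61485431 to 61488900), which encodes a microfibril-associated glycoprotein, had 18.3, 20.8 and 22.1 CPM in the controls and 13.4 and 14.1 CPM in the Treg-ablated libraries and fell 1.49-fold (log2 fold change −0.57, SE 0.111, adjusted p = 0.00509). Its groups did not overlap either.

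Fbln1 (fibulin-1) had 9.27, 12.5 and 11.8 CPM in the controls and 7.57 and 5.73 CPM in the Treg-ablated libraries and fell 1.68-fold (log2 fold change −0.75, SE 0.169, adjusted p = 0.0105). The level was low and varied in both groups. Fbln2 (fibulin-2, which binds fibronectin and fibrillin) had 57.6, 60.5 and 52.2 CPM in the controls and 44 and 42.5 CPM in the Treg-ablated libraries and fell 1.31-fold (log2 fold change −0.39, SE 0.082, adjusted p = 0.0074). Both Treg-ablated values lay below the lowest control. Fbn1 (fibrillin-1, the backbone of microfibrils) was the most abundant of these genes, with 1437, 1421 and 1179 CPM in the controls and 911 and 1116 CPM in the Treg-ablated libraries. Its highest Treg-ablated library came near the lowest control (log2 fold change −0.41, SE 0.109, adjusted p = 0.0209), and 20.1% of its exon bases also lie in exons of Gm9913 on the opposite strand. Emilin1, which encodes a glycoprotein at the elastin and microfibril interface, had 135, 146 and 131 CPM in the controls and 113 and 119 CPM in the Treg-ablated libraries and fell 1.18-fold (log2 fold change −0.24, SE 0.072, adjusted p = 0.0328). Its groups were close but did not overlap. Efemp2 (fibulin-4) and the microfibril-associated glycoprotein genes Mfap5 and Mfap2 did not pass. Their log2 fold changes were −0.18 (SE 0.074), −0.32 (SE 0.126) and −0.18 (SE 0.344) in this order, the last at a level of 0.830 to 1.48 CPM. Without control replicate 2 the adjusted p was 0.0662 for Fbln1, 0.0575 for Fbln2, 0.107 for Fbn1 and 0.155 for Emilin1. Fbn1 did not pass either without Treg-ablated replicate 1 or control replicate 1 (adjusted p = 0.108 and 0.0597, with −0.27 as its log2 fold change in the former case), Emilin1 without Treg-ablated replicate 1, Treg-ablated replicate 2 or control replicate 1 (adjusted p = 0.139, 0.0514 and 0.0554), and with the GC correction Fbn1, Fbln2 and Emilin1 were no longer called (adjusted p = 0.0703, 0.0542 and 0.338; log2 fold changes −0.33, −0.25 and −0.10).

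Of 9 basement membrane genes, Hspg2, Lama5 and Lama2 were lower and the other 6 did not pass (median log2 fold change −0.40). The lower genes made up 33.3% of these, against 12.3% of all genes tested. Hspg2 (ENSMUSG00000028763, chromosome 4, 137468769 to 137570630) encodes perlecan, the heparan sulphate proteoglycan that binds laminin and growth factors. It had 3075, 3116 and 2560 CPM in the controls and 1543 and 1966 CPM in the Treg-ablated libraries. The highest Treg-ablated library stayed well below the lowest control, and Hspg2 fell 1.66-fold (log2 fold change −0.73, SE 0.118, adjusted p = 0.00228). Lama5 encodes the alpha chain of laminins found in most mature basement membranes. It had 779, 799 and 650.3 CPM in the controls and 472 and 581 CPM in the Treg-ablated libraries and fell 1.41-fold (log2 fold change −0.50, SE 0.109, adjusted p = 0.0092). The groups did not overlap, though control replicate 3 came nearest to the Treg-ablated libraries. Lama2 (ENSMUSG00000019899, chromosome 10, 26980036 to 27619758), the alpha chain gene best known from muscle, had only 4.3, 4.41 and 4.6 CPM in the controls and 2.33 and 1.89 CPM in the Treg-ablated libraries. Although low, its groups were clearly apart, and it fell 2.08-fold, more than any other of the 38 genes tested (log2 fold change −1.06, SE 0.192, adjusted p = 0.00379).

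The other laminin chains and the nidogens did not pass. Lamb1 had 1111, 1093 and 979 CPM in the controls and 997 and 1134 CPM in the Treg-ablated libraries. The groups overlapped (log2 fold change 0.01, SE 0.085, adjusted p = 0.97), as they did for Nid1, which had 1187, 1156 and 1006 CPM in the controls and 1049 and 1193 CPM in the Treg-ablated libraries (log2 fold change 0.01, SE 0.091, adjusted p = 0.974). Lamc1 had a log2 fold change of −0.18 (SE 0.094), with an adjusted p of 0.0494 under the most lenient filter, and Lamb2 one of 0.06 (SE 0.083). The signs of Lamb1, Nid1 and Lamb2 were not the same in every alternative. Lama4, a laminin alpha chain of vessel walls, had 21.1, 20.7 and 16.8 CPM in the controls and 12.4 and 17.4 CPM in the Treg-ablated libraries with overlapping groups (log2 fold change −0.40, SE 0.152, adjusted p = 0.0736). It was called lower once Treg-ablated replicate 2 was left out (−0.65, adjusted p = 0.00871), without control replicate 3 (−0.50, adjusted p = 0.0274) with the GC correction (−0.47, adjusted p = 0.0494), with the gene length correction and with the most lenient filter (adjusted p = 0.0223 and 0.00383). Nid2 was low, at 1.26 to 2.40 CPM, and had a log2 fold change of −0.44 (SE 0.278). The call on Lama5 ended without control replicate 2 (adjusted p = 0.0638) and with the GC correction (0.0622).

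The proteoglycans moved in both directions. Dcn (ENSMUSG00000019929, chromosome 10, 97479500 to 97518162), the gene of decorin, which binds collagen fibrils and TGF-β, had 719, 748 and 776 CPM in the controls and 987 and 990.1 CPM in the Treg-ablated libraries. The Treg-ablated libraries were nearly equal and above every control, and Dcn rose 1.32-fold (log2 fold change 0.40, SE 0.068, adjusted p = 0.00276). With the GC correction the rise was smaller and still passed (log2 fold change 0.26, adjusted p = 0.0344). Lum, which encodes lumican, a related keratan sulphate proteoglycan, had 422, 413 and 436 CPM in the controls and 462 and 474 CPM in the Treg-ablated libraries. Its groups did not overlap, and no call was made (log2 fold change 0.14, SE 0.065, adjusted p = 0.13), and its log2 fold change was 0.00 with the GC correction. Bgn, the gene of biglycan, the closest relative of decorin, had 142, 142 and 138 CPM in the controls and 121 and 120.4 CPM in the Treg-ablated libraries. Each group was tight, and Bgn fell 1.17-fold (log2 fold change −0.22, SE 0.063, adjusted p = 0.0263). Vcan, which encodes the large hyaluronan-binding proteoglycan versican, had 862, 770.3 and 681 CPM in the controls and 484 and 634 CPM in the Treg-ablated libraries. Its libraries varied within both groups, and it fell 1.38-fold (log2 fold change −0.46, SE 0.122, adjusted p = 0.0197). The call on Bgn ended without Treg-ablated replicate 1 or 2 or control replicate 1 or 2 (adjusted p = 0.0855, 0.0911, 0.06 and 0.117) and with the GC correction (0.105). That on Vcan ended when Treg-ablated replicate 1, control replicate 1 and control replicate 2 were left out in turn (adjusted p = 0.0952, 0.0538 and 0.0856), with a log2 fold change of −0.28 in the first case.

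Of the 4 enzymes and enhancers of crosslinking and processing, Loxl1 and Loxl2 were lower (50.0%, against 12.3% of all genes tested). Loxl1, a lysyl oxidase that acts on elastin, had 16.4, 18.9 and 17.6 CPM in the controls and 13.4 and 11.01 CPM in the Treg-ablated libraries and fell 1.45-fold (log2 fold change −0.53, SE 0.12, adjusted p = 0.0103). Loxl2, which crosslinks collagen IV in basement membranes, had 15.1, 13.02 and 13.5 CPM in the controls and 11.2 and 9.43 CPM in the Treg-ablated libraries and fell 1.34-fold (log2 fold change −0.42, SE 0.123, adjusted p = 0.0302). Both had every Treg-ablated value below every control. Lox, the founding lysyl oxidase gene, had 25.3, 24.8 and 20.1 CPM in the controls and 18.8 and 21.4 CPM in the Treg-ablated libraries, with overlapping groups (log2 fold change −0.23, SE 0.119, adjusted p = 0.185), and Pcolce had 397, 423 and 432 CPM in the controls and 416 and 379 CPM in the Treg-ablated libraries (log2 fold change −0.07, SE 0.072, adjusted p = 0.51). The adjusted p of Loxl1 was 0.0521 without Treg-ablated replicate 2 and 0.0646 without control replicate 2, and that of Loxl2 was 0.157, 0.0851 and 0.0748 with Treg-ablated replicate 2, control replicate 1 and control replicate 2 left out in turn, 0.0674 in DESeq2 and 0.0864 with the GC correction. Lox was called lower once control replicate 3 was left out (−0.32, adjusted p = 0.0489) and with the GC correction (−0.36, adjusted p = 0.0414).

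**Figure D4:**
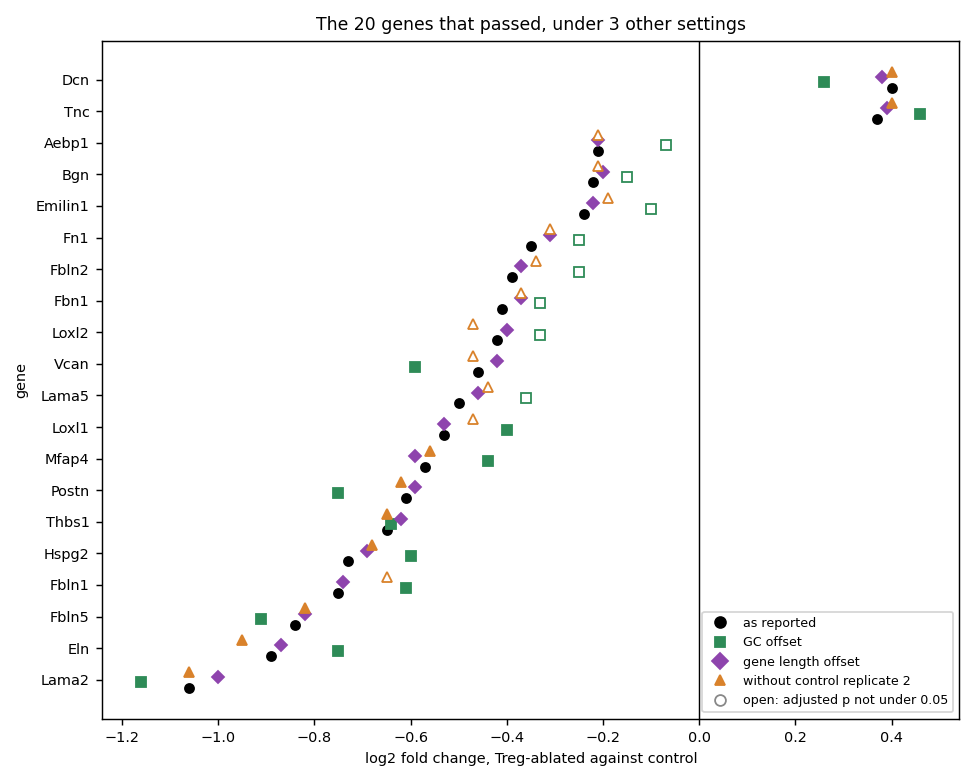
Log2 fold changes of the 20 matrix genes that passed, as reported and with a GC correction, a gene length correction or without control replicate 2; open symbols mark an adjusted p not under 0.05. No point of these genes crosses 0, 10 of the 18 lower genes stay filled with the GC correction and 7 without control replicate 2.

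Ratios of related genes within a library do not depend on how libraries are scaled, and 5 such ratios, chosen after the values were seen, were compared per kilobase. The ratio of Hspg2 to Nid1, both of basement membranes, was 1.09, 1.14 and 1.07 in the controls and 0.622 and 0.697 after ablation. That of the laminin chains Lama5 to Lamb1 was 0.61, 0.637 and 0.578 in the controls and 0.412 and 0.446 after ablation. The ratio of Thbs1 to Thbs2 was 0.165, 0.14 and 0.126 against 0.0983 and 0.094. In these 3 cases every Treg-ablated ratio was below every control ratio. The ratio of Dcn to Bgn was 14.9, 15.4 and 16.5 in the controls and 23.9 and 24.1 after ablation, and that of Tnc to Fn1 was 0.032, 0.0326 and 0.0343 and 0.0565 and 0.0522. Both were higher in every Treg-ablated library. In log2 units the differences were −0.74, −0.50, −0.57, 0.63 and 0.72 in this order. The exact two-sided permutation test gave p = 0.1 for each, before and after adjustment over the 5, which is the smallest p that 2 against 3 libraries allow and cannot pass 0.05.

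Many matrix genes are long, and the libraries of a group differed with gene length. The exon length of the 38 genes had a median of 5617 bases, against 3545 over all genes tested. Among the 11 matrix genes of at least 8 kb, the log2 difference of Treg-ablated replicate 1 from replicate 2 had a median of −0.28, and among the 27 shorter ones a median of −0.04. Likewise the log2 difference of control replicate 3 from the mean of control replicates 1 and 2 had a median of −0.24 for the long genes and 0.0 for the others. Over 12781 genes above 1 CPM in every library these medians were −0.16 and 0.02 for the Treg-ablated libraries and −0.11 and 0.02 for the controls. Of the 11 long matrix genes 8 were lower, and of the 27 shorter ones 10 were lower and 2 higher. Across the 38 genes the log2 fold change had a Spearman rho of −0.42 with length and −0.03 with GC content. Across the 12781 genes the values were −0.06 and −0.37. These genes share libraries, so the correlations are descriptions. With the length correction the 18 calls stood, and Sparc, Lama4 and Efemp2 joined them, while over all genes the calls went from 1787 to 2515 lower and from 1971 to 2583 higher.

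Other genes of matrix biology, from lists of related families, receptors and enzymes, are given by the same fit. In it 12.3% of all genes tested were lower and 13.5% higher. Of 34 tested relatives of the matrix genes 14 were lower and 2 higher (median log2 fold change −0.33). Tgfbi, which encodes an integrin-binding matrix protein, fell from 203 ± 8.29 to 119.9 ± 8.29 CPM (SD, n = 3 and 2; log2 fold change −0.76, SE 0.073, adjusted p = 0.000206). Emilin2, a relative of Emilin1, fell 1.59-fold, Tnxb, the gene of tenascin-X, 1.9-fold and Ogn, the gene of the small proteoglycan osteoglycin, 1.59-fold. Of the 13 collagen genes listed 10 were lower (median −0.47), those with the smallest adjusted p being Col6a2 (1.6-fold lower), Col1a1 (1.55-fold), Col6a1 (1.41-fold) and Col1a2 (1.46-fold). Genes that make or modify collagen were lower in 8 and higher in 3 of 21. Fkbp10, which encodes a collagen chaperone of the endoplasmic reticulum, fell 1.34-fold, P3h1, a prolyl hydroxylase gene, 1.33-fold and Plod1, a lysyl hydroxylase gene, 1.25-fold. P4ha3, a catalytic subunit of prolyl 4-hydroxylase, rose 1.78-fold.

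Of 20 genes for glycosaminoglycan synthesis, the side chains of proteoglycans, 7 were lower and 2 higher (median −0.19). Ndst1, which sulphates heparan sulphate such as that of perlecan, fell 1.44-fold, Chpf2, a chondroitin-polymerising factor gene, 1.49-fold and Xylt2, which starts the chains, 1.3-fold. Ugdh, which makes the UDP-glucuronic acid they are built from, rose 1.35-fold. Of 28 matrix receptor genes 8 were lower and 3 higher (median −0.21). Lrp1, an endocytic receptor for matrix proteins, fell 1.61-fold, the syndecan genes Sdc3 and Sdc1 1.91-fold and 1.34-fold and Mrc2, a collagen uptake receptor gene, 1.36-fold. Among 11 protease genes 2 were lower and 1 higher, a share of lower genes (18.2%) near that of all genes. These were Htra1 (1.26-fold lower), Adamts15 (2.08-fold lower) and Ctsk, the gene of cathepsin K (1.25-fold higher).

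**Figure D5:**
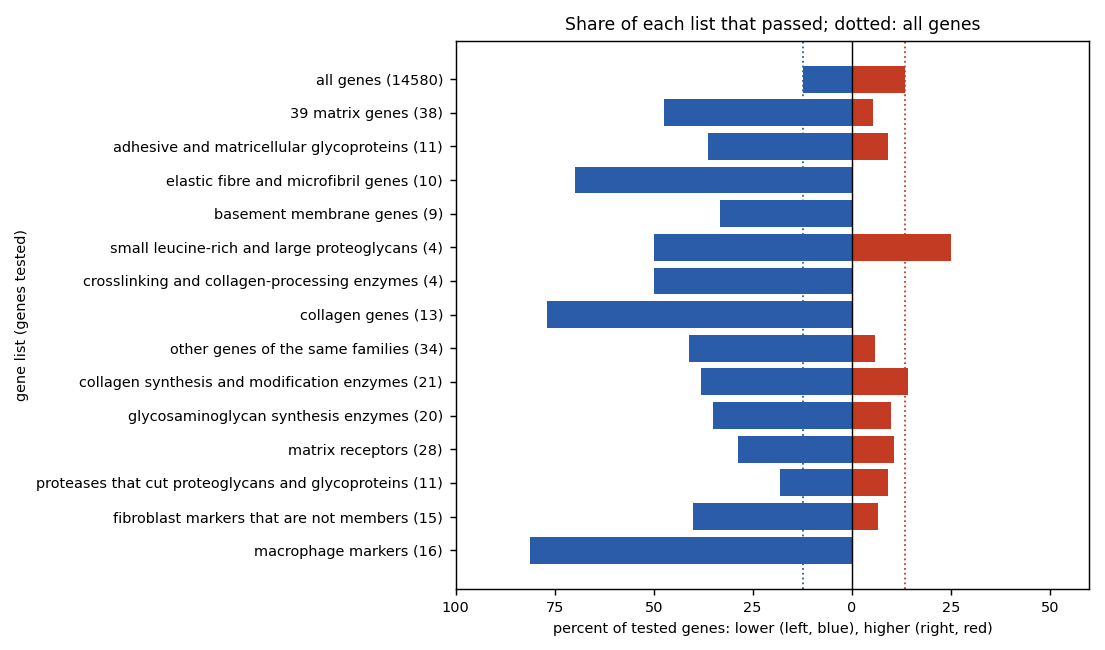
Percent of tested genes that were lower (left of 0, blue) or higher (right, red) at an adjusted p under 0.05 in each gene list, with dotted lines at the 12.3% lower and 13.5% higher of all 14580 genes. The elastic fibre list (70.0% lower), the collagen list (76.9%) and the macrophage markers (81.2%) show the longest bars to the left among the lists drawn.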

How the data were processed

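RNA was sequenced from sorted cells of 5 libraries, grouped by sample title. The deposited values are whole-number counts of fragments per gene, not normalized, which the authors obtained, per the file headers, from featureCounts 1.6.2 over exons of a filtered Ensembl 83 annotation (GRCm38). Trimmomatic 0.33, FastQC 0.11.5, DESeq2 1.16.1 and Subread 1.6.2 appear in the submitters' processing notes. The headers give no strand option, so reads of overlapping antisense genes cannot be told apart.

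The 14580 genes kept by filterByExpr were compared, after TMM scaling, by edgeR 4.0.16's quasi-likelihood test (R 4.3.3) without a block, with Benjamini-Hochberg adjustment over all of them and a threshold of 0.05. SE is the size of the log2 fold change over the root of F. CPM use the TMM-scaled library size. Replicates differed beyond sampling noise (chi-square per degree of freedom 4.19 to 7.9). Alternatives used limma 3.58.1 (voom), DESeq2 1.42.0, other scalings and filters (at least 1 count in any library as the most lenient), a fold threshold, a replicate block, lowess offsets on GC content (GENCODE M21 transcripts) or length, thinning, and leaving out each library, which with 1 Treg-ablated library left assumes that it varies like the controls. The procedure was tested on simulated data. The members and lists were chosen with earlier results of these data known. All members that passed, the 6 highest per kilobase, and up to 4 genes per related list with the smallest adjusted p are named. Other members are named to account for all 39, and gate genes and markers to describe the libraries.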

Additional observations from a re-analysis of the deposited data

How the results depend on the processing

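Leaving out each library in turn gave 7 to 19 matrix genes lower and 2 to 3 higher, and 554 to 1538 of all genes lower and 812 to 1687 higher, the smallest numbers without control replicate 2 except for the matrix genes called higher. The test against a fold of 1.5 gave 0 matrix genes lower and 0 higher, and 23 and 98 over all genes. The labels give both groups the numbers 1 and 2, but nothing says that equal numbers share an animal or day, so they were not taken as pairs. The deviations of same-numbered libraries had correlations across genes of −0.226 and −0.021. The file names number the Treg-ablated libraries 2 and 3 instead, and by these numbers the correlations were 0.021 and −0.199. Deviations of only 2 Treg-ablated libraries from their mean are equal and opposite, so these correlations cannot decide whether libraries were paired. The block uses the labels' numbers, so control replicate 3 has no Treg-ablated counterpart and adds nothing to the difference between groups. With the replicate block 16 matrix genes were lower and 2 higher (1116 and 1296 of all genes), and with the replicate block and the GC correction 16 and 2 (966 and 1118). The replicate block ended the calls on Aebp1, Bgn and Emilin1 (adjusted p = 0.275, 0.155 and 0.0927) and called Lama4 lower (−0.50, adjusted p = 0.00975). With the GC correction added it also ended the call on Loxl2 (0.0939) and called Lox (0.0133). The remaining alternatives gave between 12 and 21 matrix genes lower and 2 higher, with 1332 to 2515 of all genes lower and 1374 to 2583 higher, the largest numbers with the gene length correction. Of 646 log2 fold changes of single matrix genes under 17 alternatives, 21 changed sign, 0 of them in a gene that had passed and 0 with a call of their own. Leaving out libraries gave −0.13 to 0.00 for Thbs2, −0.06 to 0.01 for Ecm1, −0.54 to 0.07 for Mfap2, −0.09 to 0.10 for Lamb1, −0.07 to 0.18 for Lamb2 and −0.09 to 0.09 for Nid1. With the replicate block Ecm1 had 0.01, Lamb1 had −0.05 and Nid1 had −0.07. With the replicate block and GC correction together Ecm1 had 0.14, Lamb1 had −0.02, Nid1 had −0.05 and Pcolce had 0.08. With the GC correction alone Ecm1 had 0.12, Lum had 0.00 and Pcolce had 0.07. With the most lenient filter Lamb1 had −0.01 and Nid1 had −0.01. A further 70 values lost and 17 gained a call with the sign kept. Why calls changed was not tested. Genes under a few CPM (Fmod, Mfap2, Nid2, Lama2) rest on 2 to 88 counts per library, which limits their precision.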
